A study of Mus musculus with 12 samples.

Results

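Zmiz1 lies on mouse chromosome 14, and the elements described here are all histone-mark peaks over the gene and its surroundings in melanoma cells with KMT2D mutant or intact. The window ran from 26.228 to 26.536 Mb on build mm9, which is the gene (about 26.278 to 26.486 Mb) with 50 kb on either side. It held 130 of the 173601 peaks in the 10 lists. The window was selected on measured values: in the WT list it holds a pair of strong H3K4me1 peaks that had no mutant H3K4me1 peak and kept H3K27ac. That contrast is therefore given as a description, here and for every other peak of the window. No mm9 annotation was used here, so the gene's limits are approximate and a peak's place in an exon or intron is not given.

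The mutant cells, also labelled KO, came from iBIP;KMT2DL/L mice and the WT cells from iBIP;KMT2D+/+ mice. Both genotypes carried the iBIP alleles, which are PTENL/L, INK/ARFL/L, the transgenes Tyr-CreERT2 and TetO-BRAFV600E, and Rosa26-rtta, on a mixed FVB and B6 background. The Tyr promoter confines the Cre to pigment cells. All mice received doxycycline, and 1 uM 4-OHT on the ears, where the tumours arose, and tumour cells were kept in culture. The labels do not give how many tumours or clones the cells came from, and a peak list holds no reads with which to check the Kmt2d deletion. Each genotype had 1 library per mark, for H3K4me1, H3K27ac, H3K4me3, H3K79me2 and H3K27me3. No value below has a replicate check, no test between genotypes was made, and read depth is unknown. A region without a peak is one where nothing passed the authors' threshold, which does not show that the mark was lacking.

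KMT2D is a histone methyltransferase that places H3K4me1, the mark of enhancers, which are stretches of DNA that raise transcription from a distance. H3K27ac is added by other enzymes, CBP and p300, at enhancers and promoters in use. H3K4me3 marks promoters, H3K79me2 the transcribed part of active genes, and H3K27me3 chromatin silenced by Polycomb. ZMIZ1 is a nuclear coactivator related to the PIAS family of SUMO ligases, known to work with the androgen receptor, SMAD proteins and, in T cells, NOTCH1.

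Over Zmiz1, H3K4me1 peaks covered less length in the mutant than in WT, and H3K27ac peaks more. H3K4me1 covered 35535 bp of the window in the mutant and 97729 bp in WT, a ratio of 0.364. H3K27ac covered 97781 bp in the mutant and 63875 bp in WT, a ratio of 1.53. That ratio was 1.20 with only H3K27ac peaks of score 100 or more, 1.16 with 200 or more, and 1.26 without a single 17024 bp mutant peak of score 90.2. In the rest of the lists the ratios of covered length were 0.299 for H3K4me1 and 1.02 for H3K27ac. The H3K4me1 list was much shorter in the mutant throughout, with 5358 peaks against 15981 in WT, while the H3K27ac lists held 22343 and 25060. Read depth behind the lists is unknown, and its part in these differences was not tested. With only peaks of score 200 or more kept, the H3K4me1 ratio over Zmiz1 was 0.234. H3K4me3 covered 10702 bp in the mutant and 12124 bp in WT. H3K79me2 covered 115592 bp in the mutant and 133911 bp in WT, a ratio of 0.863. For these marks the rest of the lists gave ratios of 1.05 for H3K4me3 and 0.824 for H3K79me2. The H3K4me3 ratio, 0.883, was 1.03 with only peaks of score 200 or more, so no direction is drawn from it. Neither genotype had an H3K27me3 peak in the window. The map of peaks shows how these lengths are spread over the gene.

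**Figure D1:**
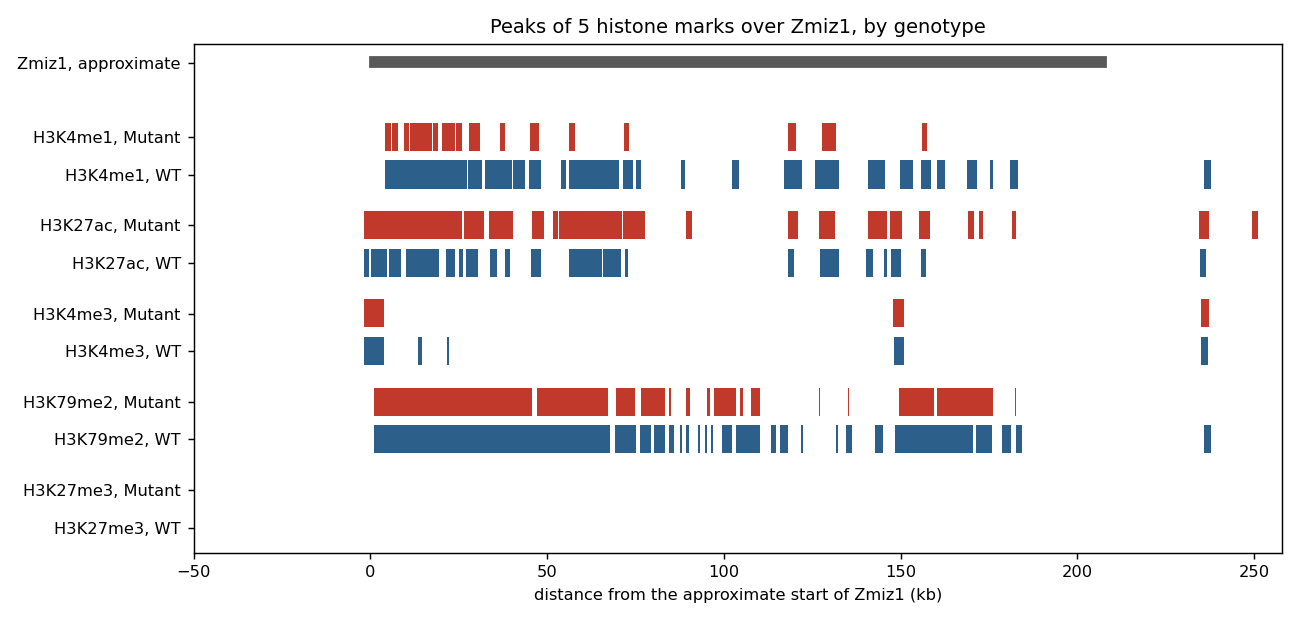
Peaks of each mark in the Zmiz1 window, with the mutant row above the WT row of the same mark; the x axis is the distance in kb from the approximate start of the gene and each block is a peak of the deposited list. Mutant H3K27ac blocks are longer than the WT ones over the first 80 kb of the gene, mutant H3K4me1 blocks are fewer and shorter, and the H3K27me3 rows are empty.

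**Figure D2:**
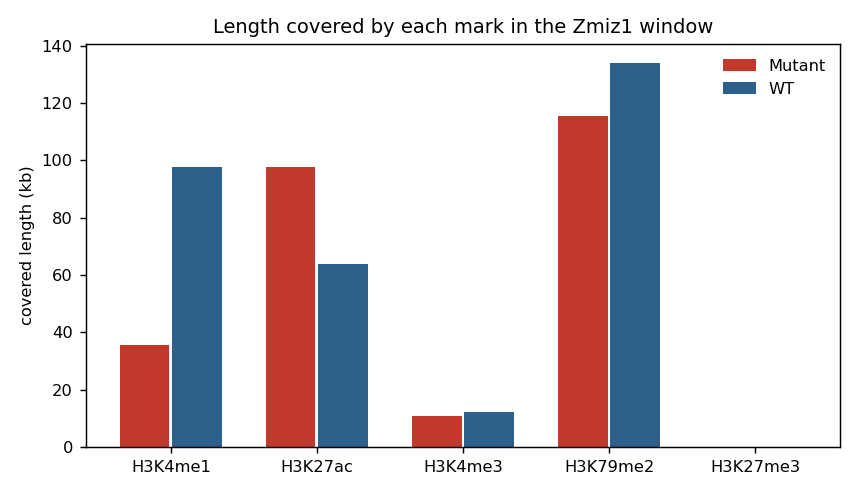
Length in kb covered by each mark in the window, mutant beside WT, with 1 library per bar and no error. H3K4me1 is 35535 bp in the mutant against 97729 bp in WT, and H3K27ac 97781 bp against 63875 bp.

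The promoter had H3K4me3 and H3K27ac peaks in both genotypes. An H3K4me3 peak spanned the approximate gene start in the mutant from 26276160 to 26281757 and in WT from 26276309 to 26281974. Both had a MACS score of 3100, where the score is 10 times the −log10 of the p-value and 3100 is a value shared by 314 mutant and 711 WT H3K4me3 peaks, so it does not show whether the levels were alike. H3K27ac at the start reached a score of 2685 in the mutant, in a single peak of 5587 bp, and 2373 in WT, in the larger of a pair of peaks. Neither genotype had H3K4me1 under the H3K4me3 peak. The RefSeq promoter of Zmiz1 (build GRCm38.p6, plus strand, 250 bases before to 50 after the start) is shown because these H3K4me3 and H3K27ac peaks lie at the approximate gene start, with each CpG pair in capitals:
Zmiz1 promoter: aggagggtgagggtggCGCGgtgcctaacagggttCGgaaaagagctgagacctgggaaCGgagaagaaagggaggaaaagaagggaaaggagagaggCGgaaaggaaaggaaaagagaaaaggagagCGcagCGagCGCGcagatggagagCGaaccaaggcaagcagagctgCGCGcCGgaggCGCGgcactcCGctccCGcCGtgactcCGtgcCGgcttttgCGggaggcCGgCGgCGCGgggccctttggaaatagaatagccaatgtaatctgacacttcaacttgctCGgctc
It has 26 CpG pairs and is 60.7% G or C, and 16.9% of the 32851 RefSeq mouse promoters of this length hold as many CpG pairs or more. The letters CCAAT (either strand), the core of the CCAAT box bound by NF-Y, occur in it 1 time, and in 37.4% of the promoters. In Zmiz1 they lie within the 50 bases after the start, not before it. The E-box letters CACGTG and CATGTG, which MITF and other factors bind, are not in this stretch on either strand, and are in 7.15% and 14.2% of the promoters. Nor are the GC box GGGCGG, in 35.7% of promoters, and the TATA box TATAAA, in 13.6%.

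H3K4me3 had further peaks in the gene and behind it. An internal peak lay about 148 kb into the gene, in the mutant from 26425901 to 26428871 (score 1707) and in WT from 26426059 to 26428840 (score 2582). It had H3K27ac in both genotypes, with a score of 410.01 in the mutant and 807 in WT. RefSeq lists 5 genes inside Zmiz1, namely Mir3075, Gm32497, 4931406H21Rik, Gm45915 and Gm52102, and the mm9 place of each was not used here. Behind the gene an H3K4me3 peak lay from 26513081 to 26515213 in the mutant (score 672) and from 26512971 to 26514875 in WT (score 1134), with H3K27ac scores of 94.6 in the mutant and 208 in WT. The next protein-coding gene after Zmiz1 in RefSeq is Ppif, which encodes the mitochondrial cyclophilin D. All 3 mutant H3K4me3 peaks had a WT peak; over the whole mutant list 6.18% had none. Of the 5 WT H3K4me3 peaks 2 had no mutant peak, against 11.3% of the WT list. These 2 were weak and short, from 26291417 to 26292513 (score 137) and from 26299589 to 26300262 (score 98.0), and both lay within H3K27ac peaks of both genotypes. The mutant H3K27ac over both was a single peak of 17024 bp with a score of only 90.2.

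H3K4me1 peaks of the window numbered 15 in the mutant and 26 in WT. All 15 mutant peaks lay wholly inside WT H3K4me1 peaks, beside 31.9% of the mutant list. The WT H3K4me1 peaks of the window were wider, with a median of 2791.5 bp against 1218 bp over the WT list. The part of this width in the difference was not tested. By any overlap, 0 of the 15 had no WT peak, beside 27.9% of the list. Of the 26 WT peaks, 16 had no mutant peak, which is 61.5% (exact 95% binomial interval 40.6 to 79.8, counting error only) beside 77.0% over the WT list. The 10 WT peaks that had a mutant peak held all 15, and 1 of them, behind the promoter, held 5. Mutant scores in the window had a lowest value of 90.4, a median of 181 and a highest of 925, and WT scores 91.0, 426 and 1453. At the 10 shared sites the best mutant score was above the WT score in 1. Scores come from libraries of unknown depth, and the whole lists had medians of 135 in the mutant and 159 in WT.

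**Figure D3:**
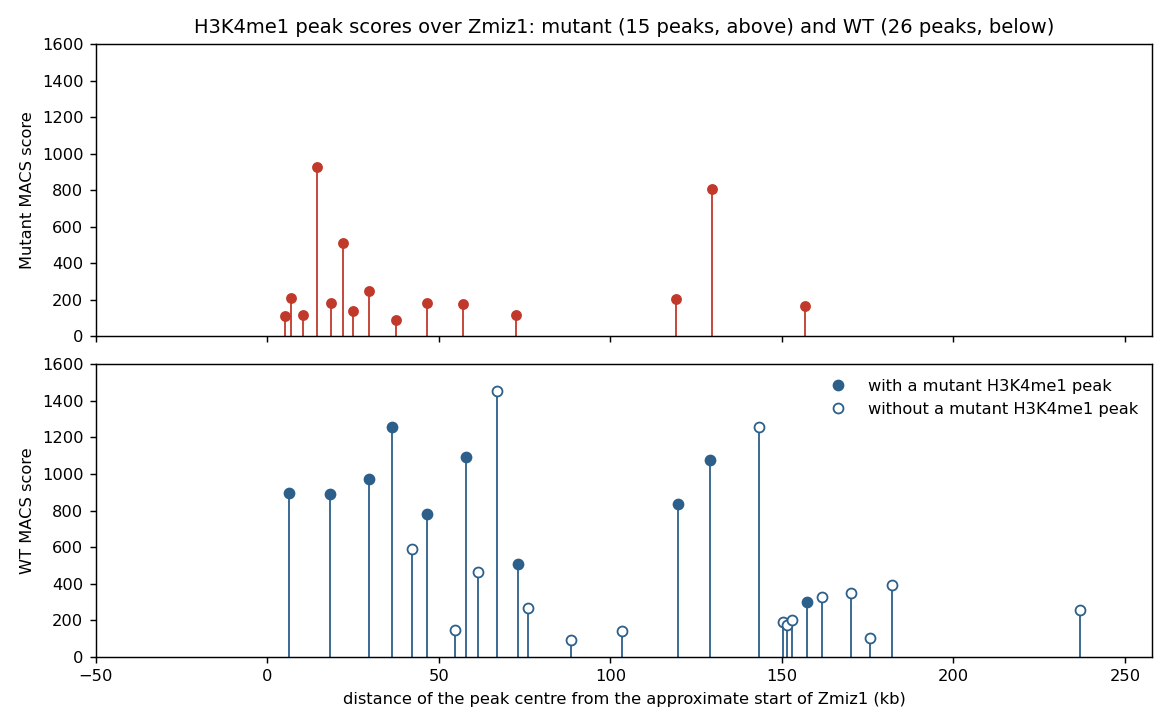
MACS score of each H3K4me1 peak against the distance of its centre from the approximate gene start in kb, mutant above and WT below; open WT points have no mutant H3K4me1 peak. The highest mutant points, at 925 and 804, stand over WT peaks of 892 and 1077, and the highest WT point, at 1453, is open.

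The chosen pair were the strongest H3K4me1 peaks of the window in WT. The stronger, from 26341092 to 26348486 (7395 bp), had a WT score of 1453 and ranked 58 of 15981 by score. Its centre was 66.8 kb into the gene, and the nearest mutant H3K4me1 peak lay 1359 bp away. Mutant H3K27ac covered 100% of it and WT H3K27ac 96.9%. H3K79me2 covered 70.3% of it in the mutant and 79.4% in WT, and no H3K4me3 peak touched it. The acetylation over it was thus in the lists of both genotypes, and the H3K4me1 in WT alone.

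The weaker of the pair, from 26418917 to 26423649 (4733 bp), had a WT score of 1256 and ranked 103 by score. It was centred 143 kb into the gene, and its nearest mutant H3K4me1 peak was 9154 bp away. Mutant H3K27ac covered 98.7% of it, in a peak of score 259 and another of score 128. WT H3K27ac covered 38.1%, in a peak of score 397 at its start and another of 104 at its end. This site had more of its length acetylated in the mutant list, but with peaks of score under 200 left out mutant H3K27ac covered 58.1% of it. At that cut the WT peak of score 104 drops out as well, and the remaining WT peak covered 1362 bp of the 4733 bp. H3K79me2 covered none of it in the mutant and 43.8% in WT.

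The WT peak just below the pair in score, from 26310372 to 26318045 (score 1255), had a mutant H3K4me1 peak, but of 90.4, near the lowest score of the list, and over 17.8% of its length. Mutant H3K27ac covered 86.0% of it and WT H3K27ac 45.7%. The next WT peak without mutant H3K4me1 had a score of 590, from 26318491 to 26321749, and no H3K27ac in either genotype. Over the WT list, 103 H3K4me1 peaks had a score of at least 1256, and 5 of them (4.85%) had no mutant H3K4me1 peak. Of those 5, 4 had mutant H3K27ac over at least 90% of their length, and the chosen pair are 2 of the 4. The cut is the score of the weaker of the pair, and the pair were chosen for this pattern. Their place among the 4 is therefore set by the selection.

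The WT H3K4me1 peaks were also counted by their acetylation in WT, with no test. Of the 15 that overlapped WT H3K27ac, 10 had a mutant H3K4me1 peak, and 5, the chosen pair among them, had none. Without the pair it was 10 of 13. Of the 11 that did not overlap WT H3K27ac, 0 had a mutant H3K4me1 peak. The WT list as a whole gave 31.1% of acetylated and 12.2% of unacetylated H3K4me1 peaks with a mutant H3K4me1 peak. The acetylated peaks of the window were also the stronger, with a median WT score of 892 against 203 for the unacetylated ones, and the part of peak strength in the difference was not tested. All 15 acetylated peaks had mutant H3K27ac, beside 87.1% in the whole list. The pair were selected for keeping H3K27ac, and without them it was 13 of 13. Of the 11 unacetylated ones 4 had mutant H3K27ac, and 16.3% of such peaks had it in the whole list.

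Of the 26 WT H3K4me1 peaks, 9 had mutant H3K27ac and no mutant H3K4me1, beside 38.6% of the WT list. Mutant H3K27ac covered at least 90% of the length, again without mutant H3K4me1, in 5 of the 26, beside 24.3% of the list. The 5 are the chosen pair and the peaks from 26331841 to 26333421 (score 148), 26337949 to 26341005 (score 462) and 26353148 to 26354664 (score 267), which lie on either side of the stronger of the pair. The pair were selected for this pattern and are in both the 9 and the 5. Both counts are therefore partly set by the selection and are given as a description only. A further 7 of the 26 had neither mutant mark, beside 38.4% of the list, and these had no WT H3K27ac. They had WT scores of 91.0 to 590, with a median of 174, and 6 of the 7 had mutant H3K79me2, beside 36.5% of such peaks in the list. WT H3K79me2 overlapped all 26 peaks, beside 47.3% of the list.

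**Figure D4:**
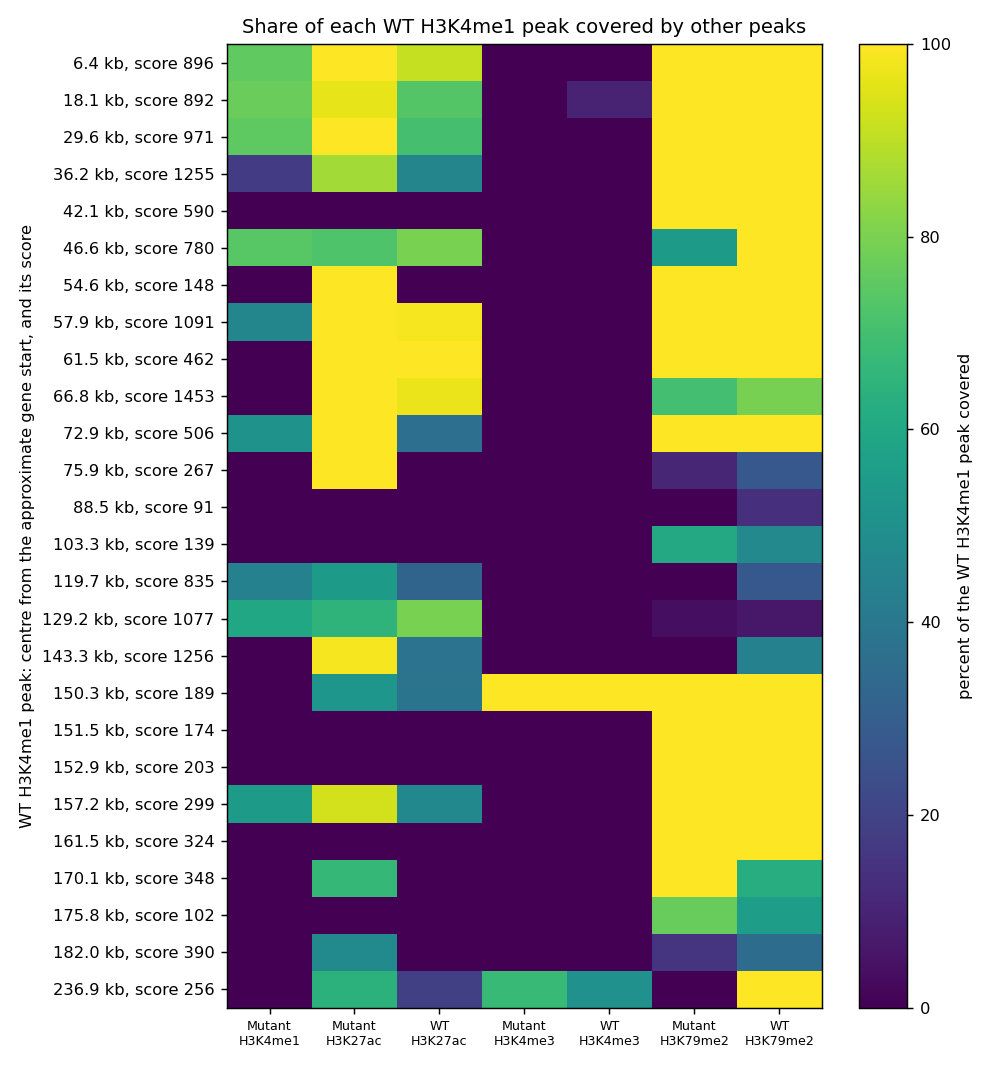
Each row is a WT H3K4me1 peak of the window, labelled with its distance from the approximate gene start in kb and its WT score; colour gives the percent of its length covered by mutant H3K4me1 and by H3K27ac, H3K4me3 and H3K79me2, mutant before WT for each mark. The rows at 66.8 and 143 kb are dark for mutant H3K4me1 and bright for mutant H3K27ac, and rows without WT H3K27ac are all dark for mutant H3K4me1.

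The H3K4me1 that the mutant kept was strongest behind the promoter and at a site far into the gene. The mutant peak from 26289336 to 26295509 (6174 bp, score 925) ranked 5 of 5358 in its list by score and 7 by width. It lay in the WT H3K4me1 peak from 26286748 to 26305497, which at 18750 bp ranked 2 by width in the WT list and had a score of 892. In all, 5 mutant H3K4me1 peaks covered 77.1% of this WT peak. The mutant peak from 26405666 to 26409762 (score 804) ranked 8, and lay in a WT peak of score 1077 from 26403734 to 26410588. H3K27ac was there in both genotypes, at 1316 in the mutant and 1207 in WT. These 2 sites thus kept strong H3K4me1 beside the chosen pair in the same gene.

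At the remaining shared sites the mutant score was below the WT score. Of the values that follow, 112 and 116 lie below the median of the mutant list, 135, as does the 90.4 given above, and the others lie above it. Behind the promoter, the WT peak from 26282177 to 26286569 (score 896) held mutant peaks of 112 and 207. The WT peak from 26305592 to 26309620 (score 971) held a mutant peak of 248. The WT peak from 26322971 to 26326191 (score 779.9) held a mutant peak of 182. Each of these kept a mutant peak over 74.0 to 75.7% of its length. At 26334092 to 26337794, next to the stronger of the chosen pair, the WT score was 1091 and the mutant score 178, over 46.0% of the length. On its other side, at 26349502 to 26352301, the WT score was 506 and the mutant score 116. Farther on, the WT peaks from 26395158 to 26400250 (score 835) and from 26433793 to 26436575 (score 299) held mutant peaks of 205 and 165. Mutant H3K4me1 peaks thus lay on both sides of the stronger chosen peak, while the WT peak that adjoins it, from 26337949 to 26341005, had none either.

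Most WT H3K27ac of the window had mutant H3K27ac over it. Mutant peaks covered 96.1% of the length of the WT H3K27ac peaks, and WT peaks covered 62.8% of that of the mutant ones. All 22 WT peaks had a mutant peak, where 24.1% of the WT list had none, and 17 of the 22 were covered whole. Both values lean on a single mutant peak from 26286927 to 26303950 (17024 bp), whose score was only 90.2. Without it mutant H3K27ac covered 76.1% of the WT length, and 3 of the 22 WT peaks had no mutant peak. With a score of at least 100 required in both lists, the cover was 73.4% and 4 of the 22 WT peaks (18.2%) had no mutant peak. Of the 21 mutant H3K27ac peaks 6 had no WT peak, or 28.6% (11.3 to 52.2), and 18.4% of the mutant list had none.

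The greater mutant length came mostly from wider peaks rather than from separate ones. Median H3K27ac width in the window was 3071 bp in the mutant and 1912.5 bp in WT, and over the whole lists 1838 and 1611 bp. Of 36376 bp acetylated in the mutant alone, 27850 bp lay in mutant peaks that also overlapped WT H3K27ac. The stronger of the chosen pair sat in the widest of them, from 26331362 to 26349215 (17854 bp, score 1307), which ranked 33 by width in the mutant list and ran over 3 WT peaks with scores of up to 1908. The mutant peak after it, from 26349345 to 26355581 (6237 bp, score 908), covered a WT peak of 1024 bp and score 114. The peak from 26433318 to 26436388 had a mutant score of 607, and the WT peak in it 175. Scores had no common direction: in 8 of the 15 mutant peaks that overlapped WT H3K27ac the mutant score was above the best WT score.

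The 6 mutant H3K27ac peaks with no WT peak were short and weak, 1092 to 1792 bp wide with scores of 97.7 to 161. The 3 strongest were from 26367330 to 26368953 (score 161), from 26450210 to 26451304 (score 140) and from 26447060 to 26448851 (score 116). The last of these lay in a WT H3K4me1 peak of score 348, and so did the weakest, from 26459525 to 26460616, in a WT H3K4me1 peak of 390.2. The other 2 were from 26329777 to 26331030 (score 111), beside the widest mutant peak, and from 26527444 to 26529112 (score 105), behind the gene, where WT had no peak of any mark. None of the 6 had mutant H3K4me1.

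Joined where they overlapped by at least 1 bp, the H3K4me1, H3K27ac and H3K4me3 peaks of both genotypes formed 24 elements, 22 of them in the gene. The first ran from the promoter to 26310305 over 34146 bp and had all 3 marks in both genotypes. H3K4me1 and H3K27ac without H3K4me3 were in both genotypes at 7 elements. At 12 elements WT had H3K4me1 and the mutant had none: 7 had no mark at all of the 3 in the mutant, 3 kept or had H3K27ac alone, and 2 had H3K27ac and H3K4me3. The remaining 4 had mutant H3K27ac only, and no mark in WT. The weaker of the chosen pair made an element of its own from 26418098 to 26424138, the only one to have both enhancer marks in WT and H3K27ac alone in the mutant. The stronger one shares its element, from 26331362 to 26349215, with the mutant H3K4me1 peak of score 178, so that element counts among those with H3K4me1 in both genotypes. When only as many of the strongest WT peaks were used as the mutant list holds, and likewise for the other marks, 6 elements had WT and no mutant H3K4me1. Elements with both enhancer marks in both genotypes numbered 8, and 3 with only peaks of score 200 or more.

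On a larger scale, stitching H3K27ac peaks no more than 12.5 kb apart gave large domains, of at least 20 kb, in the gene. The domain that starts at the promoter spanned 92719 bp in the mutant (26276235 to 26368953) and 74744 bp in WT (26276285 to 26351028), and ranked 38 of 1240 mutant and 78 of 1314 WT domains by length. By its H3K4me1 it ranked far higher, at 4 in the mutant with 27696 bp and at 3 in WT with 58589 bp. The mutant domain depends on a single 17024 bp H3K27ac peak of score 90.2, which holds 14459 bp of that mutant H3K4me1. Without that peak the mutant peaks on either side of it lie more than 12.5 kb apart. The part with the promoter is then shorter than 20 kb and no large domain. Across that WT domain H3K4me1 covered 27451 bp in the mutant, a ratio of 0.469, beside 0.359 over all large WT domains. H3K27ac covered 64206 bp of it in the mutant and 47977 bp in WT, a ratio of 1.34, beside 0.977 over all large WT domains. That mutant length includes the single 17024 bp peak of score 90.2. Without this peak the mutant length would be below the WT length, so no gain over WT is drawn from the ratio. The domain in the 3′ part of the gene spanned 64358 bp in the mutant and 38851 bp in WT. There H3K4me1 covered 7252 bp of the WT domain in the mutant and 20507 bp in WT. That ratio, 0.354, was close to the 0.359 over all large WT domains. The 3′ domain holds the weaker of the pair, chosen for lacking mutant H3K4me1, so its ratio is partly set by the selection. The window was chosen for strong WT H3K4me1 peaks, and the stronger of the pair lies in the promoter domain. The WT rank of the promoter domain by H3K4me1 is therefore partly set by that choice and is given as a description only. The promoter domain was among those with the most H3K4me1 in both lists, in the mutant only with the peak of score 90.2 kept. Its length depends on the stitching: with 5000 bp the longest domain was 42.1 kb in the mutant and 41.4 kb in WT. Without the mutant peak of score 90.2 the longest mutant domain was 64.4 kb, the one in the 3′ part of the gene.

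**Figure D5:**
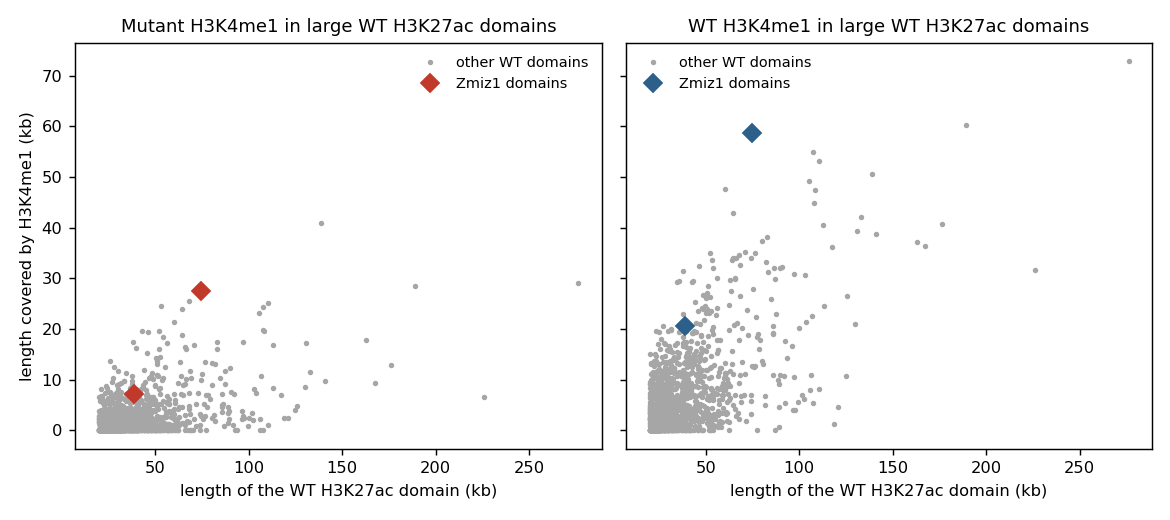
Length covered by H3K4me1 in kb against the length of each large WT H3K27ac domain in kb, mutant H3K4me1 on the left and WT H3K4me1 on the right; grey points are the other domains of the 1314. The Zmiz1 domain at the promoter stands near the top in both panels, at 27451 bp in the mutant and 58589 bp in WT. It holds the stronger chosen peak, so its WT value is partly set by the choice of the window.

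H3K79me2, which follows transcription of a gene from its start, was in both lists over much of Zmiz1. Its main block ran from 26279125 to 26323659 in the mutant (44535 bp, fold enrichment 5.51) and from 26278983 to 26345670 in WT (66688 bp, fold enrichment 5.65). It ranked 66 by width in the mutant and 18 in WT. In the mutant a further peak from 26325122 to 26345294 took up the rest of the WT block, so that mutant H3K79me2 covered 97.0% of it. A block in the 3′ part of the gene began at 26427653 in the mutant and at 26426508 in WT, close to the internal H3K4me3 peak. Mutant H3K79me2 lacked a peak at 12 of the 23 WT peaks, beside 36.8% of the WT list, and WT lacked one at 3 of the 15 mutant peaks, beside 15.3% of the mutant list. With peaks within 1000 bp counted as shared, the counts fell to 9 of 23 (39.1%) and 1 of 15 (6.67%). The list shares were not recomputed at that distance. The 12 were 447 to 2396 bp wide, and by length the mutant covered 81.0% of WT H3K79me2. Of the 12, 1 lay in the weaker chosen peak, and another, from 26513868 to 26515888, overlapped the H3K4me3 peak behind the gene.

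Regions elsewhere with the most similar pattern were the strongest WT H3K4me1 peaks with WT H3K27ac, no mutant H3K4me1, mutant H3K27ac over at least 90% of their length and no H3K4me3 in either genotype. The WT list held 2363 such peaks. By WT score the chosen pair ranked 2 and 3 among them, and the peak from 26337949 to 26341005 ranked 103. The pair were chosen as strong WT H3K4me1 peaks with this pattern, so their ranks among these peaks follow from the selection. The strongest of all, with a score of 1472, lay on chromosome 12 from 113862161 to 113868207. The next 4 outside Zmiz1 were chr1:172630778-172635424 with a score of 1091, chr7:117937043-117942496 with 1084, chr2:167473753-167479260 with 1074 and chr15:76629405-76633570 with 972. In each of the 5 a mutant H3K4me1 peak lay nearby, at 72 to 6291 bp, as it did for the stronger Zmiz1 peak at 1359 bp. WT H3K27ac covered 87.1 to 100% of these 5 regions, against 38.1% of the weaker Zmiz1 peak.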

How the data were processed

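The 10 deposited peak lists were used, each called in 1 library; the 2 input libraries were not analysed here. The submitters' processing notes name build mm9 and the tools Bowtie, MACS, MACS2 and deepTools, without roles or versions. For H3K4me1, H3K27ac and H3K4me3 the authors deposited a MACS score per peak, which reads as 10 times the −log10 p. For H3K79me2 and H3K27me3 the authors deposited a fold enrichment (ratio), a −log10 p-value and a −log10 q per peak. These authors' values serve here only for description, ranking and filtering. The window was read from the selection rule. Overlaps of at least 1 bp counted as shared, covered lengths were counted in bp, and coordinates are from 1. Intervals are exact Clopper-Pearson. Elements, domains and like regions follow the definitions in the text; the rule for named regions was every element with H3K4me1, the strongest 3 with H3K27ac alone in each genotype, and the 5 like regions elsewhere, with other marks by range and count. Further H3K27ac, H3K4me3 and H3K79me2 peaks were named after their values were seen. The members, lists and comparisons were chosen with earlier results of these data known. Alternatives were stricter thresholds, lists of like length, other windows, other overlap rules and other joining distances, and, added after seeing the data, leaving out the wide mutant H3K27ac peak of score 90.2. Promoter and gene names are from RefSeq, GRCm38.p6, matched by symbol for 1 gene. Overlap code was tested on simulated lists. Scripts ran on Python 3.11.15 with scipy 1.17.1, numpy 2.4.6 and, for figures, matplotlib 3.10.9.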

Additional observations from a re-analysis of the deposited data

How the results depend on the processing

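Of 129 values recomputed under the alternatives, 115 stayed close to those reported (within the exact interval for shares, within 1.5 times for lengths and counts), 13 moved and 1 changed direction. For shares this is a weak check, because intervals on so few peaks are wide. That of WT H3K4me1 peaks without a mutant peak ran from 40.6 to 79.8%. With a score of at least 200 and a −log10 q of at least 5, the mutant over WT ratio of H3K4me1 length was 0.234 and that of H3K4me3 1.03, above 1 because the weak WT-only peaks drop out. At that threshold 3 elements had both enhancer marks in both genotypes, 26.7% (4 of 15) of WT H3K27ac peaks had no mutant peak, 0% (0 of 3) of WT H3K4me3 and 0% (0 of 7) of mutant H3K79me2 peaks lacked a peak of the other genotype, and the longest H3K27ac domain was 40.1 kb in the mutant and 32.2 kb in WT. Mutant H3K27ac then covered 58.1% of the weaker chosen peak. A score of at least 100 gave 18.2% for WT H3K27ac peaks with no mutant peak. Lists of the same length gave 6 elements with WT and no mutant H3K4me1, and 9 of 19 WT H3K4me1 peaks without a mutant peak (47.4%). A stitching distance of 5000 bp gave longest domains of 42.1 kb in the mutant and 41.4 kb in WT, and 1 large WT domain. Neither chosen peak had a mutant H3K4me1 peak within 1000 bp; stricter thresholds only remove mutant peaks and so cannot test this absence. No paired analysis was possible because each genotype had 1 library per mark. Unknown depth limits every statement on missing peaks.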

Other observations

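The 17024 bp mutant H3K27ac peak behind the Zmiz1 promoter had a score of 90.2, while the WT H3K27ac peaks under it scored up to 2247 and the mutant H3K4me1 peak in it 925. Such a low score was rare for a wide peak. Of 284 mutant H3K27ac peaks at least 10000 bp wide, 2 scored under 100 and the median was 2092, and of 205 WT peaks of that width 0 did and the median was 2899.9. The score of this peak therefore ranks it 22319 of 22343 in the mutant list, and 48 by width.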
